A study of Drosophila melanogaster with 6 samples.

Results

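Genes that oenocytes use to make cuticular hydrocarbons were followed in RNA-seq libraries of the adult fly fat body. Oenocytes are large secretory cells of the abdomen that lie beneath the cuticle, next to the fat body, and can come along with it when it is dissected. The genes were listed by symbol as FASN2, FASN3, eloF, desatF and Cyp4g1, and their rows were taken from the deposited table of gene counts through FlyBase identifiers. Of the 5 genes, 4 were found among 15682 rows. FASN3 had no row under the identifier that the reference name table gives it and was not analysed here. The symbols are those in common use, and desatF is called Fad2 in the reference table.

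Cuticular hydrocarbons are long-chain waxes that waterproof the fly and serve as contact pheromones. Their synthesis starts from malonyl-CoA, which fatty acid synthases build into a fatty acid. Desaturases add double bonds, elongases and their partner enzymes lengthen the acyl-CoA chain, reductases turn it into an aldehyde, and a P450 of the Cyp4g family with its electron donor Cpr removes the last carbon to leave a hydrocarbon. FASN2 is a fatty acid synthase used by oenocytes, eloF is an elongase of female long-chain dienes, desatF is the female desaturase that adds the second double bond of those dienes, and Cyp4g1 is the oxidative decarbonylase of the last step.

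All flies were adult females of the white Dahomey stock, which carries Wolbachia, aged 7 to 10 days. FB-Dp110DN flies carried the dominant-negative transgene Dp110DN, a version of the catalytic subunit of the insulin-responsive phosphoinositide 3-kinase that blocks its signalling, switched on by the constitutive fat body driver FB-GAL4, and FB-GAL4 flies carried the driver without the transgene, so the driver was shared by both groups. Each group had 3 libraries, each from pooled flies (5 per sample in the labels, while the study's methods give another number). The study processed both groups in parallel and paired them by day. Same-numbered libraries were taken here as these pairs, which the study does not state. The driver was aimed at the fat body, and its activity in oenocytes was not measured here. The comparison asks whether the hydrocarbon genes differed in level when Dp110 signalling was lowered in that tissue.

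Total counts ranged from 22607341 to 36870161 per library. Counts on Pi3K92E, which encodes Dp110 and also takes the reads of the transgene, were 20264, 42707 and 10089 in FB-Dp110DN replicates 1 to 3 and 2852, 2217 and 3012 in FB-GAL4. Scaled to library size after TMM normalisation (CPM), they were 890.8, 1243.7 and 341.8 in FB-Dp110DN and 81.25, 90.09 and 94.09 in FB-GAL4. FB-Dp110DN replicate 3 thus had the lowest level of its group. Its log2 difference from the same-numbered control was 1.86, against 3.45 and 3.79 in pairs 1 and 2. The groups did not overlap, with a fitted log2 fold change of 3.05 ± 0.40 (SE), and an adjusted p of 0.153 in edgeR, which missed the threshold. The same gene passed with DESeq2's Wald test (log2 fold change 3.09, adjusted p 5.95e-17) and with edgeR without the replicate 3 pair (3.63, adjusted p 1.82e-32). These settings called many more genes, 993 of 10398 and 862 of 10356, against 3 of 10398 in edgeR with all libraries. Fat body markers, 11 of 13 of which had rows, held from 4.94% to 7.09% of counts in FB-Dp110DN and from 2.68% to 7.16% in FB-GAL4, and none was at 0. Both replicate 3 libraries stood apart from the others. Their fat body markers were lowest in each group (4.94% and 2.68%), their gut markers (14 of 14 with rows) were lower (0.462% and 0.618%, against 1.38% to 2.10% in the other libraries), their muscle markers (19 of 20) were higher (4.20% and 2.91%, against 0.876% to 1.21%), and their epidermis and cuticle markers (8 of 8, with Lcp65Ac at 0 in all libraries) were higher (0.195% and 0.103%, against 0.00632% to 0.0120%). Marker sums also moved with the groups. Muscle markers were higher in FB-Dp110DN in all 3 same-numbered pairs (1.11%, 1.21% and 4.20% against 0.992%, 0.876% and 2.91%), as were epidermis and cuticle markers, and ovary and eggshell markers (14 of 16) were lower without overlap, at 0.438%, 0.314% and 0.466% against 0.504%, 0.488% and 0.544%.

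The 4 genes together held 1.53%, 1.87% and 1.03% of all counts in FB-Dp110DN replicates 1 to 3 and 1.96%, 1.68% and 0.939% in FB-GAL4. Replicate 3 was lowest in each group, and the groups overlapped. Cyp4g1 alone gave between 81.5% and 84.4% of these counts in every library. Counting error was small beside these differences, with Wilson 95% intervals no wider than 0.011 percentage points on either side of a share. The genes listed as oenocyte markers are the measured genes themselves, so which cells held the transcripts was not analysed here. In RNA from a whole dissected tissue, fewer oenocytes and less RNA per oenocyte cannot be told apart.

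FASN2 (FBgn0042627, chromosome arm 2L) had 719.7, 1012.3 and 523.4 CPM (counts scaled to library size after TMM normalisation, the usual library-scaled level), in FB-Dp110DN replicates 1 to 3. In FB-GAL4 it had 701.7, 709.6 and 415.0 CPM. FB-Dp110DN replicate 2 was the highest and FB-GAL4 replicate 3 the lowest, and the ranges of the groups overlapped. The group means were 751.8 ± 246.0 and 608.8 ± 167.9 CPM (SD, n = 3). On TMM scaling FASN2 was the only one of the 4 genes to be higher in FB-Dp110DN in all 3 same-numbered pairs. Its log2 differences were 0.036, 0.51 and 0.33, but 56.1% of all tested genes had one sign in all pairs. As a share of raw library totals, FASN2 was lower in FB-Dp110DN in pair 1 (0.07104% against 0.07153%) and pair 3 (0.04577% against 0.04651%). Only in pair 2 was the raw share of FASN2 higher (0.09428% against 0.07724%). The small nuclear RNA genes snRNA:LU and snRNA:U5:23D overlap it on the same strand in the later annotation and held from 0 to 23 counts.

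The elongase eloF (FBgn0037762, arm 3R) had 321.4, 378.1 and 91.51 CPM in FB-Dp110DN and 410.8, 326.0 and 129.0 CPM in FB-GAL4. Replicate 3 was far below the other libraries in both groups. The mean of replicates 1 and 2 exceeded replicate 3 by 3.82-fold in FB-Dp110DN and by 2.86-fold in FB-GAL4, so the libraries differed within a group much more than the group means did, at 263.7 ± 151.8 and 288.6 ± 144.6 CPM (SD, n = 3). Its pair differences were of mixed sign, at -0.35, 0.21 and -0.50 on the log2 scale.

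The desaturase desatF (FBgn0029172, arm 3L) had 1638.9, 1834.1 and 1477.5 CPM in FB-Dp110DN. The FB-GAL4 libraries had 2432.9, 1690.6 and 765.0 CPM, so the highest and the lowest value were both controls. The means were 1650.2 ± 178.5 and 1629.5 ± 835.7 CPM (SD, n = 3). Its pairs gave log2 differences of -0.57, 0.12 and 0.95, the widest range of the 4 genes. The fold between replicates 1 and 2 and replicate 3 was 1.18 in FB-Dp110DN but 2.70 in FB-GAL4, and this difference was not tested.

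Cyp4g1 (FBgn0010019, X chromosome) was among the most abundant transcripts, ranking between 4 and 9 of all genes by counts. It had 12842.8, 16838.2 and 9648.5 CPM in FB-Dp110DN and 15654.9, 12681.0 and 7066.6 CPM in FB-GAL4. Replicate 3 was the lowest library of each group, and the ranges overlapped. The means were 13109.8 ± 3602.3 and 11800.8 ± 4361.3 CPM (SD, n = 3), and the pairs differed by -0.29, 0.41 and 0.45 on the log2 scale. CG32816 overlaps Cyp4g1 on the same strand in the later annotation, with from 99 to 471 counts, against from 226216 to 578208 for Cyp4g1.

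**Figure D1:**
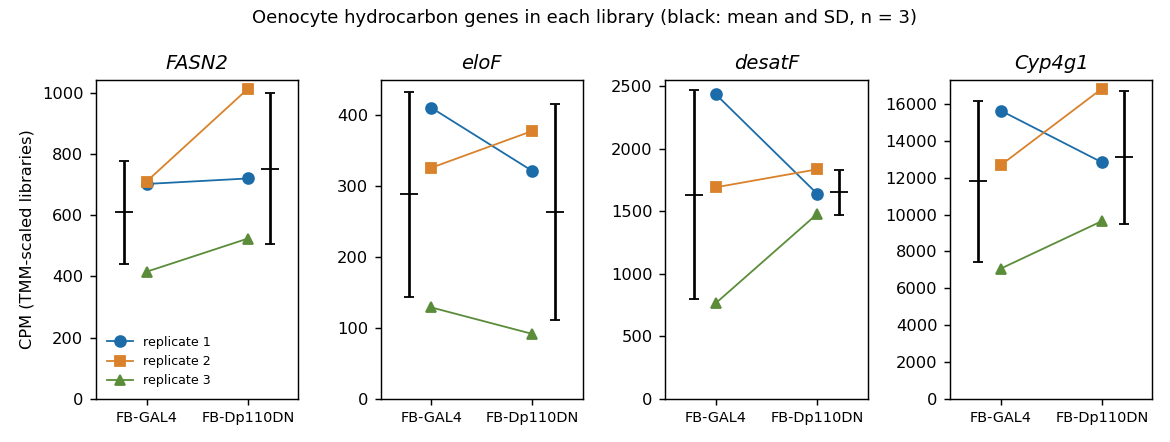
Level of FASN2, eloF, desatF and Cyp4g1 in each library, as CPM of TMM-scaled libraries, with lines joining same-numbered libraries of FB-GAL4 and FB-Dp110DN and black bars for the mean and SD (n = 3). Replicate 3 is the lowest library of its group for all 4 genes, and the groups overlap in each panel.

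All 4 genes were lowest in replicate 3 within each group. The shift was largest for eloF and smallest for desatF in FB-Dp110DN, while in FB-GAL4 it was 1.70-fold for FASN2, 2.00-fold for Cyp4g1, 2.70-fold for desatF and 2.86-fold for eloF. The fat body, gut, muscle and cuticle markers moved with the same libraries, as given above, and their part in the levels of the hydrocarbon genes was not tested.

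Per kb of exon, which allows genes to be compared, the order was Cyp4g1, desatF, eloF, FASN2 in all 6 libraries. Cyp4g1 had 5752.4 ± 1580.6 CPM per kb in FB-Dp110DN and 5178.1 ± 1913.7 in FB-GAL4 (SD, n = 3). Mean levels of desatF were 1257.7 ± 136.1 and 1242.0 ± 636.9 CPM per kb. For eloF they were 282.6 ± 162.7 and 309.3 ± 154.9, and for FASN2 92.12 ± 30.15 and 74.59 ± 20.57. Over all libraries the ranges of Cyp4g1 and desatF did not meet, nor did those of desatF and eloF, whereas the range of eloF, from 98.09 to 440.3 CPM per kb, overlapped that of FASN2, from 50.85 to 124.0. For scale, the yolk protein gene Yp1, a product of the female fat body, had 16306.4 and 11795.6 CPM per kb in the same order of groups, and apolpp, the precursor of the lipid carrier lipophorin, had 604.1 and 482.2.

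The ratios to Cyp4g1 were steadier for FASN2 and desatF than for eloF. Cyp4g1 exceeded FASN2 by 59.6-fold to 79.9-fold per kb, a log2 range of 0.42 over the 6 libraries. It exceeded desatF by 3.70-fold to 5.32-fold, a log2 range of 0.52. Against eloF the fold ran from 15.6 in FB-GAL4 replicate 1 to 43.2 in FB-Dp110DN replicate 3, a log2 range of 1.47. FB-Dp110DN replicate 3 was the library that set the upper end, since the other 5 lay between 15.6-fold and 22.4-fold.

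None of the 4 genes was called different between the groups by edgeR's quasi-likelihood test with the replicate number as a block. Calls needed a Benjamini-Hochberg adjusted p under 0.05 over 10398 tested genes, and 0.0289% of all tested genes were called, so an absence of calls among 4 genes is close to the background. None of the 4 had an unadjusted p under 0.05 either, against 26.1% of all tested genes. DESeq2's Wald test also called 0 of the 4, against 9.55% of all tested genes. By that test 1 of the 4 had an unadjusted p under 0.05, against 2663 of 10398. None had groups that did not overlap, against 32.7% of all tested genes.

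The estimate for FASN2 was 0.30 ± 0.16 (SE) on the log2 scale, with a 95% interval from -0.084 to 0.68 and an adjusted p of 0.265 in edgeR. For eloF it was -0.21 ± 0.17, with an interval from -0.63 to 0.21 and an adjusted p of 0.453. The interval of desatF was wider, from -0.58 to 0.92 around 0.17 ± 0.31, and that of Cyp4g1 the widest, from -0.66 to 1.05 around 0.20 ± 0.35, with adjusted p of 0.729 and 0.726. In folds, the interval of Cyp4g1 ran from 0.633 to 2.08 and that of desatF from 0.670 to 1.89. Changes within these limits, in either direction, were not excluded. Without the replicate 3 pair the estimate of desatF turned to -0.21. The sign for Cyp4g1 and desatF also depended on scaling, since their means on raw library totals were 12266.2 against 12560.5 CPM for Cyp4g1 and 1539.4 against 1725.9 CPM for desatF, FB-Dp110DN first in each, and thus lower in FB-Dp110DN.

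**Figure D2:**
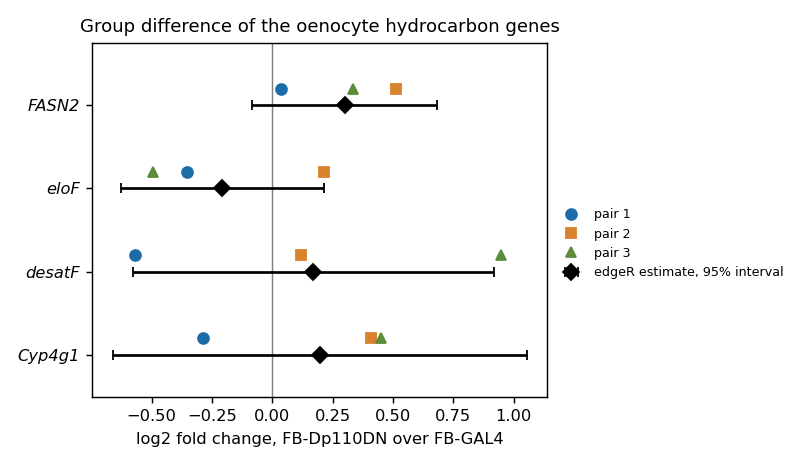
Log2 fold change of each hydrocarbon gene, FB-Dp110DN over FB-GAL4, with the edgeR estimate and its 95% interval (diamonds and bars) and the difference in each same-numbered pair (coloured points). All 4 intervals include 0, and FASN2 alone has its 3 pairs on one side on TMM-scaled libraries. On raw library totals the pairs of FASN2 had mixed signs.

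Other genes of the pathway's enzyme roles were read from a list of 53, of which 50 had rows and 43 were tested. The list was written by hand, and which of its genes serve hydrocarbon synthesis in oenocytes was not tested. FASN1, hll and Fatp1 had no row under the table's identifiers and were not analysed here. Together the 50 genes held from 0.985% to 1.33% of counts in FB-Dp110DN and from 0.812% to 1.22% in FB-GAL4. Of the 43, 0 were called by edgeR. Unadjusted p under 0.05 was reached by 10 with a higher and 2 with a lower estimate in FB-Dp110DN, 27.9% of the list against the 26.1% of all tested genes. The median log2 fold change was 0.24, beside 0.042 for all tested genes, and 34 estimates were above 0 and 9 below, beside 5573 above and 4825 below over all tested genes. The list's median was 0.50 without replicate 1, 0.20 without replicate 2 and 0.15 without replicate 3. In these edgeR fits 21, 5 and 9 of the 43 had an unadjusted p under 0.05. Over all tested genes the counts were 2281 of 10534, 1337 of 10518 and 2623 of 10356, in the same order. The part of the marker sums that moved with the groups in these values was not tested. Groups did not overlap for 8 of the 43 genes, 18.6% against 32.7% of all. DESeq2's Wald test called 7 of the 43, all higher in FB-Dp110DN (ACC, bgm, CG8630, CG18609, CG33110, CG8306 and Cyp4g15, with adjusted p from 0.0149 to 0.0448). That is 16.3% of the list, against 9.55% of all tested genes by the same test, 640 of them higher and 353 lower. Without the replicate 3 pair edgeR called 3, CG8630 and CG9743 higher and CG9747 lower, or 6.98% of the list against 8.32% of all tested genes.

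Precursor synthesis had a median of 0.42 over 4 tested genes. ACC, the acetyl-CoA carboxylase that makes malonyl-CoA, had 988.7, 1303.9 and 1335.5 CPM in FB-Dp110DN and 867.8, 965.2 and 643.2 CPM in FB-GAL4. In CPM the groups did not overlap, with an estimate of 0.56 ± 0.21 (SE) and an adjusted p of 0.172 in edgeR. The CPM of the very-long-chain acyl-CoA synthetase gene bgm was also above every control in all FB-Dp110DN libraries. It was 144.6, 183.5 and 221.6 against 115.7, 132.5 and 128.2, with an estimate of 0.53 ± 0.14 and an adjusted p of 0.153 in edgeR. As shares of raw library totals the groups overlapped for both genes. In FB-Dp110DN replicate 1 ACC held 0.0976% of counts, below 0.1051% in FB-GAL4 replicate 2. The share of bgm in that FB-Dp110DN library was 0.01428%, below 0.01442% and 0.01437% in FB-GAL4 replicates 2 and 3.

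The 6 desaturases had the highest median of the roles, 0.54. Desat1, the general delta-9 desaturase, had 2502.0, 4021.5 and 3022.9 CPM in FB-Dp110DN and 2324.7, 2837.1 and 1769.1 CPM in FB-GAL4. Its groups overlapped, and its estimate was 0.47 ± 0.22 with an adjusted p of 0.233. CG8630 had 13.50, 19.02 and 86.87 against 9.801, 8.005 and 57.54 CPM, higher in FB-Dp110DN in each pair but with replicate 3 far above the rest in both groups. CG9743 had 145.2, 160.4 and 34.93 against 75.21, 88.06 and 37.39 CPM, so its replicate 3 libraries were the lowest and did not share the direction of the other pairs.

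Elongases had a median of 0.21 over 15 tested of 19 listed. CG33110 was higher in every FB-Dp110DN library, at 92.89, 100.3 and 103.4 CPM against 81.48, 60.26 and 53.11 CPM, with an estimate of 0.63 ± 0.18 and an adjusted p of 0.153. The elongase gene sit had 0, 3 and 3 counts in FB-Dp110DN and 21, 10 and 15 in FB-GAL4, so it was at or under the floor of 3 counts in each FB-Dp110DN library and no fitted fold is given. CG30008 and CG31141 were at 0 in all 6 libraries. Among the partners of the elongation cycle, the estimates were 0.25 ± 0.19 for Hacd1, a dehydratase, 0.21 ± 0.14 for Sc2, an enoyl-CoA reductase, and 0.24 ± 0.25 for spidey, a ketoacyl-CoA reductase that oenocytes require. Their groups overlapped, and adjusted p ran from 0.349 to 0.546.

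Fatty acyl-CoA reductases had a median of 0.17 over 11 tested of 14 listed. CG8306 had 84.98, 87.77 and 106.5 CPM in FB-Dp110DN against 76.10, 51.12 and 57.60 CPM in FB-GAL4, with an estimate of 0.61 ± 0.18 and an adjusted p of 0.153. Sgp, listed as CG13091, went the other way without overlap, at 182.1, 217.2 and 209.3 against 289.4, 235.6 and 285.9 CPM, with an estimate of -0.41 ± 0.15 and an adjusted p of 0.170. FarO, an oenocyte reductase, gave 0.17 ± 0.24 with overlapping groups. At the P450 step, Cyp4g15, the other Cyp4g gene of the fly, had 28.84, 37.04 and 28.39 CPM against 21.97, 21.25 and 20.87 CPM. It did not overlap between groups, and its estimate was 0.55 ± 0.15 with an adjusted p of 0.153. Cyp4g1 and its partner Cpr had smaller estimates, 0.20 and 0.26, with overlapping groups, and the difference between Cyp4g15 and Cyp4g1 was not tested.

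**Figure D3:**
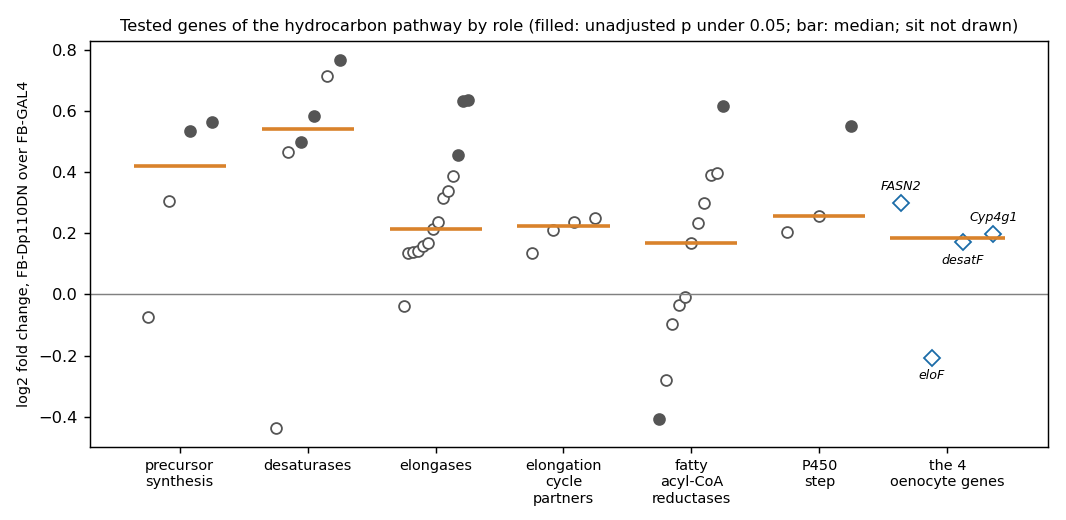
Log2 fold change, FB-Dp110DN over FB-GAL4, of the tested pathway genes by role (circles, filled where the unadjusted p was under 0.05) and of the 4 oenocyte genes (diamonds), with bars at the medians. The median is above 0 in each role, from 0.17 for reductases to 0.54 for desaturases; sit, at 0 to 3 counts in FB-Dp110DN, counts in the elongase median but is not drawn.

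On arm 3R eloF lies in a row of elongase genes, in the order CG8534, eloF, CG16904, CG9459, CG9458. Reads of similar neighbours could have been split or shared in counting, so single values are uncertain. CG16904 was close to eloF in level in replicates 1 and 2, at 309.6 and 362.6 CPM per kb in FB-Dp110DN and 389.5 and 305.7 in FB-GAL4, beside 344.5, 405.3, 440.3 and 349.4 for eloF. In replicate 3 they parted. CG16904 had 346.2 CPM per kb in FB-Dp110DN and 211.4 in FB-GAL4, where eloF had 98.09 and 138.3. The mean of replicates 1 and 2 over replicate 3 was 3.82 for eloF in FB-Dp110DN but 0.761 for CG8534, 0.971 for CG16904, 1.23 for CG9459 and 1.11 for CG9458, and in FB-GAL4 it was 2.86 for eloF against 1.48 to 1.85 for the neighbours. The estimates of the neighbours between the groups lay from 0.16 to 0.34 on the log2 scale, with adjusted p from 0.282 to 0.655 in edgeR, while that of eloF was -0.21.

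**Figure D4:**
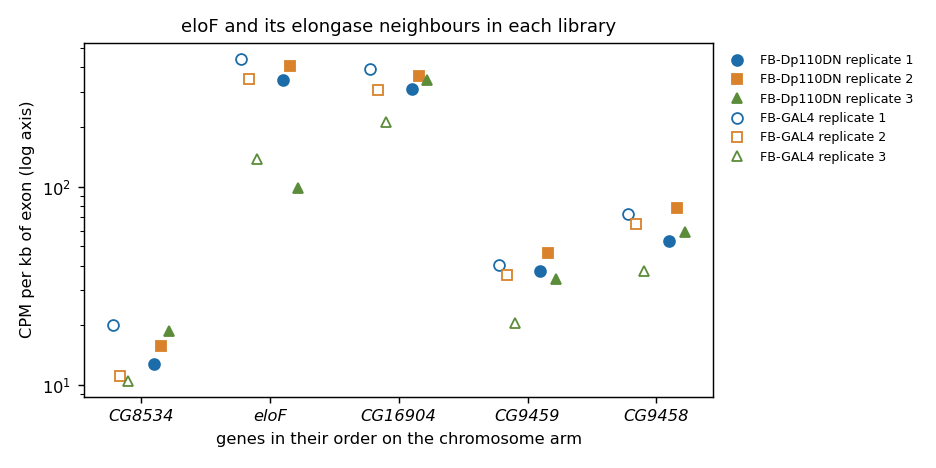
CPM per kb of exon (log axis) of eloF and the elongase genes beside it, in their order along arm 3R, with filled symbols for FB-Dp110DN, open symbols for FB-GAL4 and one shape for each replicate number. The replicate 3 triangles of eloF lie well below its other libraries, at 98.09 and 138.3, whereas CG16904 keeps 346.2 in FB-Dp110DN replicate 3.

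The genes whose profile was most like that of Cyp4g1 were ranked by the root-mean-square difference of centred log2 CPM over the 6 libraries, among 9634 genes with a mean of at least 1 CPM. The nearest was Cpr, the P450 reductase that passes electrons to Cyp4g1, at 0.064 on the log2 scale, against a spread of 0.47 (SD) for Cyp4g1 itself. Cpr had 1521.6, 1800.9 and 1077.2 CPM in FB-Dp110DN and 1618.7, 1428.1 and 755.7 CPM in FB-GAL4. The elongase gene CG6660 followed, then CG34212, CAHbeta, a carbonic anhydrase, and fbl, a pantothenate kinase of coenzyme A synthesis, with differences from 0.093 to 0.10. FASN2 stood at rank 21, desatF at rank 140 and eloF at rank 5385.

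The nearest 100 genes held 10 of the 41 ranked pathway genes, or 24.4%, where 100 genes are 1.04% of those ranked. They were Cpr, CG6660, CG4020, CG9459, Acsl, CG9458, Sc2, CG17560, Hacd1 and Elovl7. The likeness rests in good part on replicate 3, the lowest library of each group: without it Cpr was at rank 56, CG34212 at rank 9, CG6660 at rank 178, FASN2 at rank 1080, desatF at rank 1682 and eloF at rank 103, and the nearest 100 held 6 of the 41 pathway genes. The libraries share depth, dissection and scaling, and the ranks are a description with no test.

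**Figure D5:**
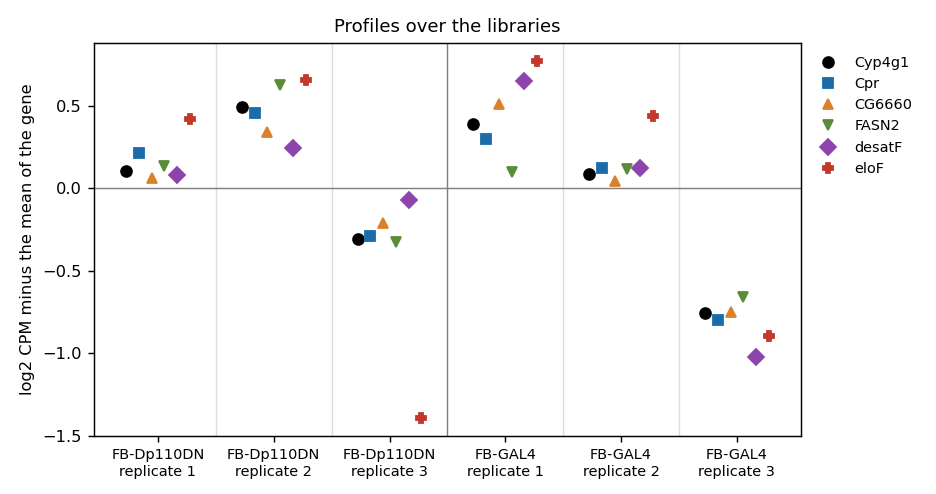
Log2 CPM of 6 genes in each library after subtraction of the mean of the gene, with one symbol per gene. Cpr and CG6660 stay close to Cyp4g1 in every library, while eloF lies far below the others in FB-Dp110DN replicate 3.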

How the data were processed

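RNA of dissected fat bodies was made into mRNA libraries from 1 ug of RNA with 10 PCR cycles, per the labels. Reads were aligned by the authors with TopHat2 2.0.11 to BDGP5 and counted with HTSeq; the strand setting is not given in the sources used here, so overlapping genes are uncertain. The deposited table held raw read counts per gene without normalization. It also held the authors' DESeq2 comparison, which was not used: the authors' mean signal, the authors' log2 fold change and its standard error, the authors' Wald score, and the authors' p-value with its adjusted form.

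Of 15682 identifiers, 15002 matched a symbol, and the rest held from 5.91% to 7.11% of counts. A later build, BDGP6, gave symbols, arms, gene order and exon lengths, and no coordinates are given. Genes were tested with edgeR 4.0.16 in R 4.3.3 (filterByExpr, TMM, quasi-likelihood test, replicate block, Benjamini-Hochberg), which was checked on simulated counts. The simulation gave all genes the same dispersion and both groups the same replicate effect. It therefore does not show how the test performs where pairs differ as these did. Log2 CPM used a prior count of 2. Replicate numbers were taken to pair the libraries, as the design gives separate dates and the study paired groups by day. The study does not say that equal numbers share a day. Deviations from the group means correlated across genes at 0.416, 0.189 and 0.590 in the 3 same-numbered pairs. The mean for different numbers was -0.181, but deviations cancel within a group, which lowers it when same-numbered pairs correlate. FB-Dp110DN 1 with control 2 gave 0.384 and FB-Dp110DN 2 with control 1 gave 0.221. The correlations therefore cannot decide how numbers 1 and 2 pair. Control replicates 2 and 3 carry the same description, so their numbers rest on titles. Wilson intervals and the floor of 3 counts cover counting error only, while the edgeR intervals of fold changes also take in the spread between libraries.

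The genes and lists were chosen with earlier results of these data known. Pathway genes named were the 2 of smallest p in each role plus ACC, Desat1, Cpr, spidey and FarO, and FASN1 where it had a row; others were named after their values were seen. Profiles most like Cyp4g1 numbered 5. Marker lists of hemocytes (0.0406% to 0.0497% of counts), neurons (0.0136% to 0.0180%) and ovary and eggshell (0.314% to 0.544%) were also summed. Alternatives were no block, DESeq2 1.42.0 size factors, its Wald test, all genes kept, only genes with at least 10 counts in each of the libraries, and each pair left out. Raw library totals were an alternative for levels. Likeness without replicate 3 and on raw library totals was chosen after seeing the data.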

Additional observations from a re-analysis of the deposited data

How the results depend on the processing

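No fitted setting called any of the 4 oenocyte genes, and 31 of 32 combinations of gene and fitted setting kept the sign; adjusted p ran from 0.177 to 0.974. The exception was desatF, at -0.21 without replicate 3 (from -0.21 to 0.57 over the pairs left out). Raw library totals, used for levels only and not in a fit, put the group means of Cyp4g1 and desatF in the other order, as given above. With one pair left out FASN2 ran from 0.19 to 0.46, eloF from -0.42 to -0.057 and Cyp4g1 from 0.0745 to 0.47. Without the replicate block, estimates were 0.31 for FASN2, -0.12 for eloF, 0.024 for desatF and 0.16 for Cyp4g1, with adjusted p from 0.555 to 0.974. Other pathway genes called, 0 in edgeR, numbered 7 with DESeq2's Wald test and from 0 to 3 with a pair left out. All genes called, 3 in edgeR, numbered 0 without the replicate block (2551 at an unadjusted p under 0.05), 993 with DESeq2's Wald test (640 higher, 353 lower), 5 without the filter, and from 0 to 862 with a pair left out, the 862 without replicate 3 (383 higher, 479 lower). Signs also turned without replicate 3 for FarO (-0.11, to 0.52), spidey (-0.0895, to 0.57), CG6660 (-0.061, to 0.46) and Lsp2 (-0.063, to 1.69). For 23 of the other named genes, 169 of 183 combinations kept both sign and side of the threshold. CG18609 and CG9747, whose calls changed as given above, and the elongase neighbours of eloF were outside the 23. The block changed no call among named genes. The cause of these shifts was not tested. The 4 genes had 2701 counts or more in every library.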

Other observations

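Relative to the fat body markers, the oenocyte genes ran differently than they did relative to all counts. Their counts were 21.6%, 26.7% and 20.8% of the fat body marker counts in FB-Dp110DN replicates 1 to 3, and 27.3%, 28.0% and 35.0% in FB-GAL4. Every FB-Dp110DN library was below every control, with the nearest values 26.7% and 27.3%. In CPM, a different measure from this ratio, 32.7% of all tested genes were without overlap between the groups. Yolk protein genes made up from 83.5% to 87.6% of the marker counts, so this ratio mostly sets oenocyte transcripts against yolk transcripts. It was computed after the data had been seen and was not tested. Lsp2, a storage protein of the fat body, was far higher in one library, with 1489, 5076 and 45440 counts in FB-Dp110DN and 3944, 2362 and 7651 in FB-GAL4.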
